A study of Homo sapiens with 4 samples.

Results

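MCAM and 8 other genes of the immunoglobulin superfamily of adhesion molecules (ALCAM, BCAM, L1CAM, NCAM1, ICAM1, CADM1, NECTIN2 and NECTIN3) were examined in control and TOP2B-depleted cells. The set was chosen on these libraries, because MCAM had one of the largest falls in the comparison described here. The values of MCAM are therefore given as a description with no test, and the other 8 genes were listed by family. All 9 genes were present among the 60725 genes of the count table, and 5 of them were among the 15356 genes with enough reads to be tested.

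The cells were RPE1, an hTERT-immortalized line from human retinal pigment epithelium, in a derivative that carries the SunTag system, so that both groups share this background. The 2 control libraries received a negative control siRNA (the scramble of the labels), and the 2 TOP2B knockdown libraries received siRNA against TOP2B. The paper lists different reagents for either purpose and does not state which of them these RNA-seq libraries received. Either siRNA was used at 10 nM, cells were transfected a second time after 48 h, and they were harvested 72 h later, on day 5. Polyadenylated RNA was sequenced with the TruSeq RNA kit as 65-bp single-end reads, and the study describes its replicates as independent biological ones. Each condition had its own siRNA treatment, and the labels of these 4 libraries name no second TOP2B siRNA. An effect of either siRNA itself and the loss of TOP2B therefore cannot be told apart here.

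Most adhesion molecules of this superfamily are single-pass membrane proteins with immunoglobulin-like domains outside the cell. They bind the same molecule or a related one on a neighbouring cell, and some also bind laminins, integrins, growth factor receptors or receptors of immune cells. MCAM (CD146) is best known from endothelial cells, pericytes, smooth muscle and melanoma, where it takes part in cell-to-cell adhesion and acts as a coreceptor, and in polarized epithelia such as the retinal pigment epithelium, nectins form adherens junctions together with cadherins.

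The depth was 20310259 to 23887013 counts per library, so that 1 CPM (a count scaled to library size, with TMM factors) stood for 20.2 to 24 reads. TOP2B itself was at 154.9 and 143.5 CPM in the control libraries and at 15.3 and 13.3 CPM in the knockdown libraries, which left 9.58% of the control level. Over all genes tested the median log2(fold change) was -0.0029 (middle 50% of genes between -0.22 and 0.26). At an adjusted p below 0.05 in edgeR's quasi-likelihood test, 1665 genes (10.8%) were called, 1023 higher (6.66%) and 642 lower (4.18%) in the knockdown.

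The promoter of MCAM is shown first, because this gene carries the difference, beside the promoter of NECTIN2, the other member with the same 8-letter element. RefSeq (GRCh38.p14) held promoters for 7 of the 9 genes, each of 300 bases from 250 before to 50 after an annotated start. NCAM1 and CADM1 had no entry. The window of MCAM lies on the minus strand of chr11:119317081-119317380 and that of NECTIN2 on the plus strand of chr19:44846047-44846346. Capitals mark the cyclic AMP response element (CRE, TGACGTCA), which CREB and ATF proteins are known to bind, and the GC box (GGGCGG on either strand), which SP1 is known to bind.
MCAM: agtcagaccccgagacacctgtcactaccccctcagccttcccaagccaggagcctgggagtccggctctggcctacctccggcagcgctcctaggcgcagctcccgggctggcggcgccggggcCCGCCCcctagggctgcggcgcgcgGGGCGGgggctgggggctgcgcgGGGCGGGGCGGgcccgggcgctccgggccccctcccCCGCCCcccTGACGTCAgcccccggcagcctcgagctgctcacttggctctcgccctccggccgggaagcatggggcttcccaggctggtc
NECTIN2: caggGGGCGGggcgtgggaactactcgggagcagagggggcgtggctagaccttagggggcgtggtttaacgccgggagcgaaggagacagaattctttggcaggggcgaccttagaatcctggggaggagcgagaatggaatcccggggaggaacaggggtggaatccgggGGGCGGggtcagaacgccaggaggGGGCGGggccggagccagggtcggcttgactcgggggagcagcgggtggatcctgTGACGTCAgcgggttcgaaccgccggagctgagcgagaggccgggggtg

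Both windows hold 1 CRE. In MCAM it begins 32 bases before the start, and in NECTIN2 just past the start. The other 5 genes with an entry hold none in these windows, and 1.85% of all 35116 RefSeq windows hold one. The MCAM window holds 5 GC boxes, counted with overlaps, and that of NECTIN2 holds 3. GC boxes were found in the windows of all 7 genes and in 45% of all windows. The AP-2 motif GCCNNNGGC was present once in the MCAM window, 2 times in each BCAM window and in 23.2% of all windows. TATAAA was present in ICAM1 alone among the 7 genes, and in 11.5% of all windows. The GC content was 78% for MCAM and 68.3% for NECTIN2. The start that RefSeq gives for MCAM lies inside the gene as GENCODE annotates it, since the GENCODE gene extends further upstream. A match is a match of letters only, and binding was not measured in these libraries. The level of NECTIN2 and of the factors that bind these elements follows with the other values.

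MCAM (ENSG00000076706, GRCh38 chromosome 11 from 119308529 to 119321521, minus strand) had 732 and 699 counts in the control libraries and 90 and 81 counts in the knockdown libraries. These counts correspond to 30.6 and 30.7 CPM in the control and to 4.25 and 4.02 CPM in the knockdown. Both knockdown libraries were thus far below both control libraries, and within either condition the libraries differed little. The mean was 30.6 ± 0.069 CPM in the control and 4.13 ± 0.16 CPM in the knockdown (SD, n = 2), which is 13.5% of the control level. An SD from 2 libraries is itself uncertain, and at these counts counting error alone is larger than either SD. The fitted log2(fold change) was -2.89 (standard error 0.15). It was the 8th largest fall of all genes tested, the 4th when genes under a mean of 1 CPM were set aside, and the 2nd, after TOP2B, among the 9487 genes that reached a mean of 10 CPM. CBL, on the opposite strand, and MIR6756 overlap 7.71% of the exon bases of MCAM. Since the libraries are bulk RNA, fewer cells with MCAM and less MCAM RNA per cell cannot be told apart.

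None of the other tested members was called with condition as the only term, in a comparison where 10.8% of all genes were. ALCAM, NECTIN2 and NECTIN3 had slightly lower means in the knockdown and BCAM a slightly higher one, and in each of them the libraries of the conditions overlapped. MCAM was the only one of the 5 tested members without overlap, a property that 54.3% of all tested genes shared. By edgeR's quasi-likelihood test 0 of these 4 genes passed the threshold, also 0 at an unadjusted p below 0.05, and DESeq2 called 0. Nothing is read from these counts, because the set was chosen on this contrast.

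**Figure D1:**
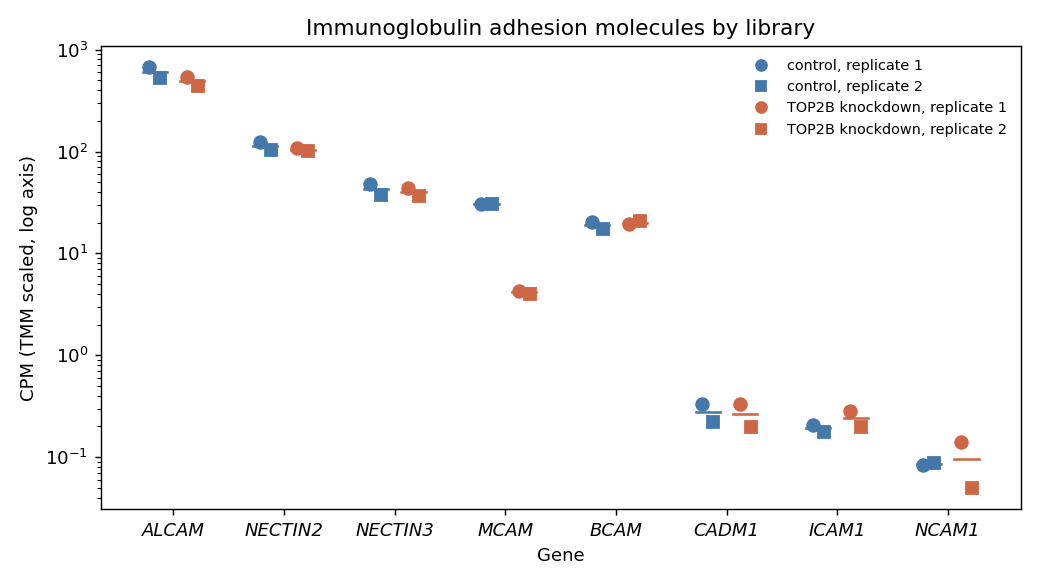
Level of the 8 members with reads in each library (CPM on a log axis, TMM scaled), with circles for replicate 1, squares for replicate 2 and lines for the mean of a condition. MCAM goes from 30.6 and 30.7 to 4.25 and 4.02 CPM, and the libraries of the other genes with over 10 CPM overlap between the conditions. L1CAM, at 0 counts in all 4 libraries, is left out.

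ALCAM (CD166), which binds itself on neighbouring cells and CD6 on T cells, had the highest level per exon length of the set. It lies on chromosome 3 from 105366909 to 105576900 and had 675 and 526 CPM in the control and 540 and 440 CPM in the knockdown. Replicate 1 was higher than replicate 2 in both conditions, and control replicate 2 was below knockdown replicate 1. The log2(fold change) was -0.29 (standard error 0.17, 95% interval from -0.68 to 0.09, adjusted p = 0.319 by edgeR's quasi-likelihood test). Without control replicate 1 it was -0.10 and without knockdown replicate 2 -0.17, and without control replicate 2 or knockdown replicate 1 it was -0.46 or -0.45. With all libraries and the replicate number as a block, ALCAM was called (-0.29, adjusted p = 7.41e-05 by edgeR). In that fit 3440 of all genes were called higher and 3346 lower.

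BCAM, the Lutheran blood group glycoprotein and a receptor of laminin chain alpha 5, lies on chromosome 19 from 44809071 to 44821421. It had 20.4 and 17.3 CPM in the control and 19.3 and 20.8 CPM in the knockdown, so that the control libraries lay on either side of a knockdown library. The log2(fold change) was 0.09 (standard error 0.14, 95% interval from -0.23 to 0.41, adjusted p = 0.758 by edgeR). Its direction rests on control replicate 2, as the value without this library was -0.03.

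NECTIN2 and NECTIN3 are junction proteins that bind each other and, inside the cell, afadin. NECTIN2 (chromosome 19 from 44846175 to 44889223), also a ligand of the immune receptors CD226 and TIGIT, had 124.7 and 104.2 CPM in the control and 107.2 and 100.8 CPM in the knockdown. Its log2(fold change) was -0.14 (standard error 0.13, 95% interval from -0.43 to 0.15, adjusted p = 0.551 by edgeR). The value was close to 0 (-0.0026) without control replicate 1 and -0.26 without control replicate 2. Both NECTIN2 and MCAM hold the CRE in the windows printed for them, and the difference between their values was not tested, because MCAM was chosen on it. NECTIN3 (chromosome 3 from 111070071 to 111275563) had 47.7 and 37.5 CPM in the control and 43.8 and 36.9 CPM in the knockdown. Its log2(fold change) was -0.08 (standard error 0.15, 95% interval from -0.41 to 0.26, adjusted p = 0.792 by edgeR). The value for NECTIN3 was 0.11 without control replicate 1 and 0.03 without knockdown replicate 2, so that its sign rests on these libraries. In NECTIN2 and NECTIN3, as in ALCAM, replicate 1 was above replicate 2 in both conditions.

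The 4 remaining members were too low to be tested. CADM1, an adhesion molecule of epithelia and synapses, had 8 and 5 counts in the control and 7 and 4 in the knockdown. ICAM1, the endothelial and epithelial ligand of leukocyte integrins, had 5 and 4 counts in the control and 6 and 4 in the knockdown, and 25.4% of its exon bases overlap ICAM4-AS1 or LIMASI. NCAM1, the neural cell adhesion molecule, had 2 and 2 counts in the control and 3 and 1 in the knockdown. L1CAM, which guides axons and is also found in tumours, had 0 counts in all 4 libraries. A count of 0 allows up to 0.125 and 0.131 CPM in the control and 0.141 and 0.149 CPM in the knockdown libraries (3 counts, counting error only). At this depth a fall or a modest rise in these 4 genes was not detectable, and no fold is given.

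Levels of different genes were compared per kb of annotated exon. In the control, ALCAM stood first with 83.7 ± 14.7 CPM per kb (SD, n = 2), followed by NECTIN2 with 30.6 ± 3.87. NECTIN3 (5.52 ± 0.93), MCAM (4.12 ± 0.0093) and BCAM (3.78 ± 0.44) came next. Both NECTIN3 libraries, at 6.18 and 4.87, lay above MCAM, and MCAM and BCAM differed by less than the SD of BCAM. In the knockdown the level of MCAM was 0.56 ± 0.022 CPM per kb, below that of BCAM (4.01 ± 0.21) and above that of ICAM1 (0.070 ± 0.017). With the exon length of the canonical transcript in place of all annotated exons, MCAM stood 3rd in the control instead of 4th, with 9.20 ± 0.021 CPM per kb against 8.20 ± 1.38 for NECTIN3 and 7.83 ± 0.91 for BCAM. The order of MCAM and NECTIN3 in the control therefore depended on the exon length used, whereas MCAM ranked 5th in the knockdown with either length.

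**Figure D2:**
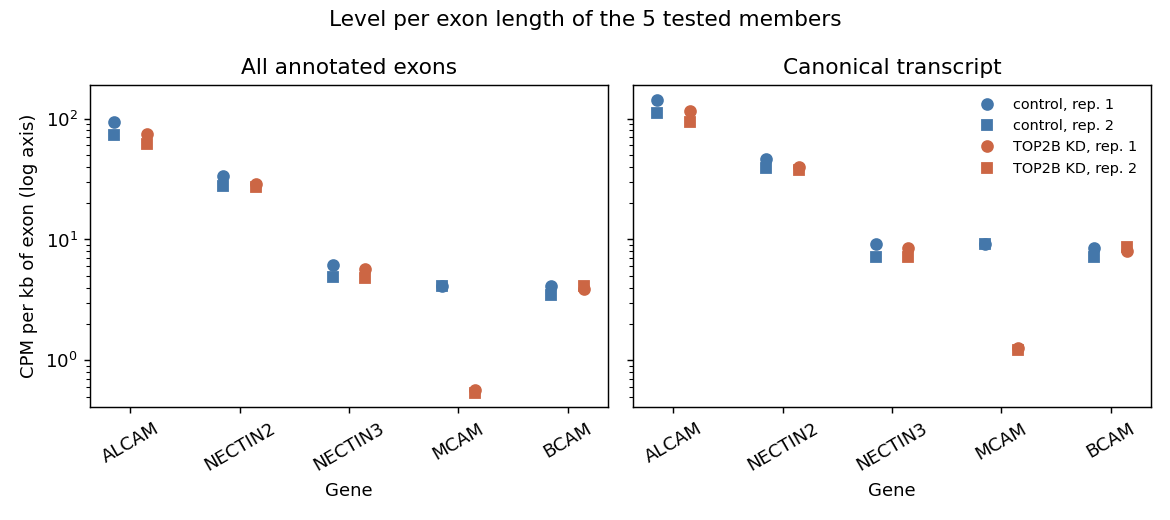
Level of the 5 tested members per kb of exon (log axis) in each library, over all annotated exons on the left and over the canonical transcript on the right. In the control MCAM lies among NECTIN3 and BCAM, and in the knockdown it lies below all 4 other genes (0.56 CPM per kb over all exons).

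The position of the members was not used to choose them. CADM1, NCAM1 and MCAM share the long arm of chromosome 11, with starts 2.54 Mb (NCAM1 and CADM1) and 3.82 Mb (CADM1 and MCAM) apart. ALCAM and NECTIN3 lie 5.70 Mb apart on chromosome 3, and BCAM and NECTIN2 start 37.1 kb apart on chromosome 19, where each is the nearest tested gene on one side of the other. Within 500 kb of the MCAM start 26 other genes were tested. Of these, 3 rose and 2 fell by edgeR's quasi-likelihood test, against 6.66% and 4.18% of all genes, and their median log2(fold change) was -0.10 (range -0.80 to 1.00).

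Neither gene next to MCAM passed the test. CBL, a ubiquitin ligase that overlaps the end of MCAM on the other strand, had 128.2 and 118.0 CPM in the control and 127.5 and 95.7 CPM in the knockdown (log2(fold change) -0.14, adjusted p = 0.601 by edgeR). RNF26, which starts 13.0 kb away, had a log2(fold change) of 0.06 (adjusted p = 0.808 by edgeR). The region also holds adhesion molecules of the same superfamily, THY1 at 103.5 kb and NECTIN1 at 407.7 kb. Their log2(fold changes) were -0.17 and -0.16 (adjusted p = 0.481 and 0.532 by edgeR).

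The 5 called genes of the region all lie on the side of the lower coordinates, beyond CBL, as do most of the tested genes of the region. SLC37A4, the glucose-6-phosphate transporter of the endoplasmic reticulum, rose from 35.3 and 23.0 to 63.8 and 52.5 CPM (log2(fold change) 1.00, standard error 0.19, adjusted p = 0.0108 by edgeR). DPAGT1, which starts the synthesis of N-linked glycans, rose from 48.6 and 42.9 to 85.3 and 76.1 CPM (0.82, standard error 0.13, adjusted p = 0.00398, same test). HYOU1, a chaperone of the endoplasmic reticulum named here after its value was seen, rose by 0.58 (adjusted p = 0.0293, same test), a call lost without control replicate 2 (0.46, adjusted p = 0.238) and without knockdown replicate 1 (0.50, adjusted p = 0.162). The 2 called falls were those of the processed pseudogene RPL23AP64 (-0.80, adjusted p = 0.0315, same test) and of the long noncoding RNA ENSG00000254428 (-0.68, adjusted p = 0.0455, same test). RPL23AP64 and ENSG00000254428 start at -318.07 and -316.63 kb from the MCAM start, both on the minus strand. CENATAC, which also had a negative value, starts close by at -323.38 kb on the plus strand. Exon overlap was not computed for these neighbours, and how strand was treated in counting is not given. Whether RPL23AP64, ENSG00000254428 and CENATAC carry separate signals was therefore not tested. Reads of a pseudogene may be shared with its parent gene, so that its value is uncertain. Neither fall was called without control replicate 1 (adjusted p = 0.0938 and 0.0865) or without knockdown replicate 2 (0.122 and 0.222), and by DESeq2 the adjusted p values were 0.0529 and 0.0752. The call of the noncoding RNA was also lost without control replicate 2 (adjusted p = 0.0583). CENATAC, beside these genes and named after its values were seen, had a value of -0.49 (adjusted p = 0.0697 by edgeR) and was called lower by DESeq2 (adjusted p = 0.0461), without control replicate 2 (-0.62, adjusted p = 0.0177), without knockdown replicate 1 (-0.66, adjusted p = 0.0178) and with no filter on low counts (adjusted p = 0.014).

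**Figure D3:**
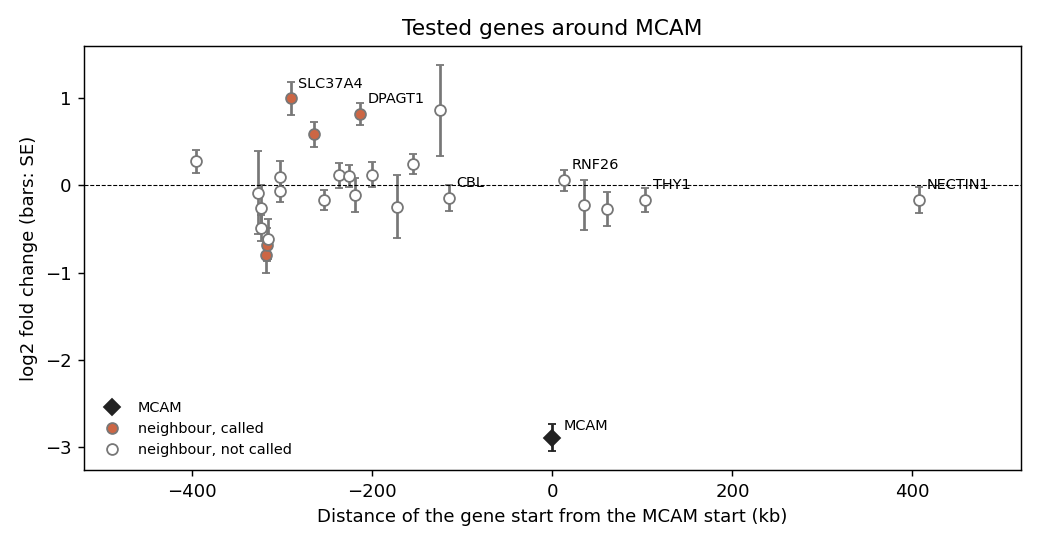
log2(fold change) of MCAM and of the 26 tested genes within 500 kb of its start, against the distance of the gene starts in kb (positive towards higher coordinates), with bars for 1 standard error. MCAM stands at -2.89, and its neighbours lie between -0.80 and 1.00.

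Among the nearest tested genes on either side of the other members, RAVER1, which lies beside ICAM1 and encodes an RNA-binding protein, was the one gene called (log2(fold change) 0.50, adjusted p = 0.0451 by edgeR). It was named after its value was seen, and 10.8% of all genes tested were called.

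A list of 42 further immunoglobulin adhesion molecules was examined for genes that behave like MCAM. Of these, 24 had enough reads to be tested and 9 had no read in any library. None rose and 2 fell by edgeR's quasi-likelihood test, where 6.66% of all genes were called higher and 4.18% lower. The median log2(fold change) was -0.12, and 16 of the 24 values were negative. At an unadjusted p below 0.05, 2 were higher and 4 lower, and DESeq2 called 0 higher and 2 lower. CXADR, the coxsackievirus and adenovirus receptor of tight junctions (chromosome 21 from 17513043 to 17593579), had 29.6 and 18.6 CPM in the control and 7.50 and 6.45 CPM in the knockdown. Although the control libraries differed, both lay well above the knockdown. The log2(fold change) was -1.79 (standard error 0.22, adjusted p = 0.00171 by edgeR), and it ranged from -2.09 to -1.41 without any one library. NFASC, a member of the L1 family at nodes of Ranvier (chromosome 1 from 204828651 to 205022822), had 169.3 and 163.2 CPM in the control and 114.7 and 101.7 CPM in the knockdown. It fell by 0.62 on the log2 scale (standard error 0.12, adjusted p = 0.0129 by edgeR), but without knockdown replicate 2 the adjusted p was 0.093.

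The other family members with reads were not called. The abundant ones BSG, THY1 and PVR had log2(fold changes) of -0.20, -0.17 and -0.15 (adjusted p = 0.456, 0.481 and 0.567 by edgeR). The highest positive value was that of NRCAM, also of the L1 family, with 1.69. It rests on 8 and 2 counts in the control and 12 and 17 in the knockdown, so that the gene passed the filter on low counts only through the knockdown libraries, and nothing is read from its value. ESAM, an endothelial junction molecule, had 4.47 and 5.22 CPM in the control and 7.03 and 7.59 CPM in the knockdown (0.59, adjusted p = 0.0737 by edgeR).

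**Figure D4:**
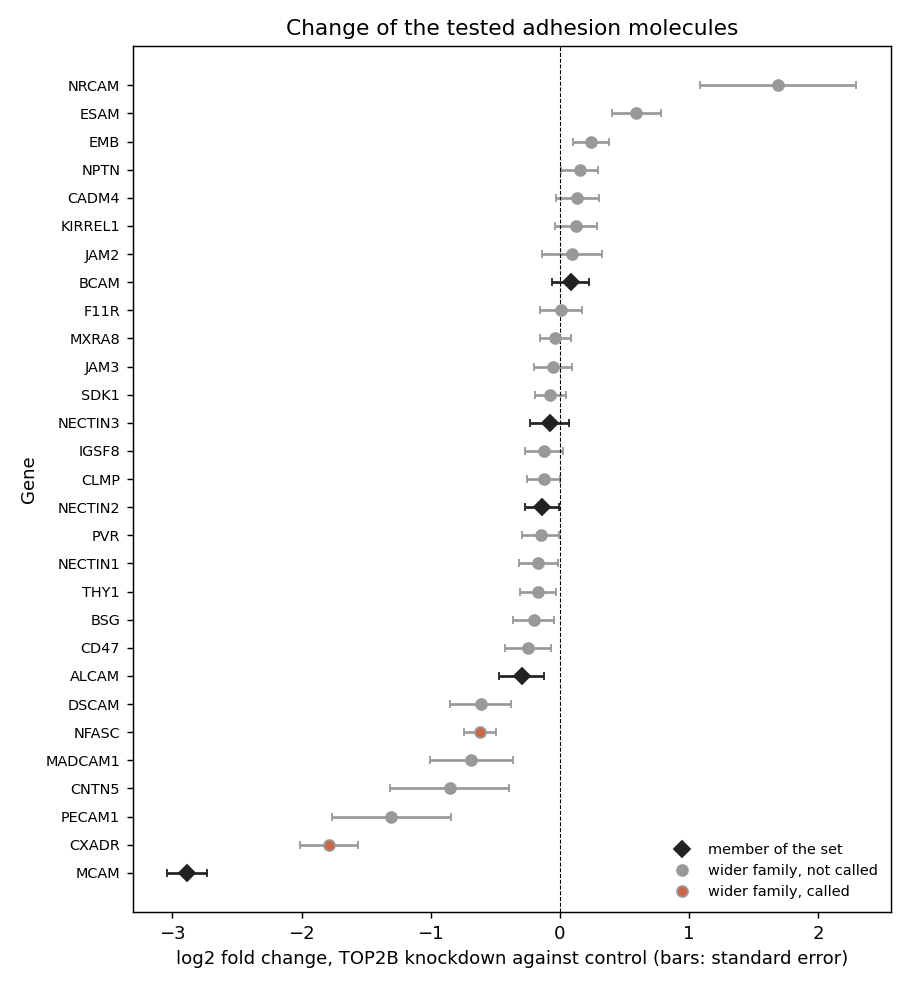
log2(fold change) of the 5 tested members (black diamonds) and of the 24 tested genes of the wider family (circles, orange where called), ordered by value, with bars for 1 standard error. MCAM (-2.89) and CXADR (-1.79) stand lowest, and the others lie between -1.30 (PECAM1) and 1.69 (NRCAM).

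The second list held 24 extracellular ligands, coreceptors and counter-receptors of the 9 genes, of which 18 were tested. Here 2 rose and 2 fell by edgeR's quasi-likelihood test (6.66% and 4.18% of all genes), with a median of -0.17. For MCAM the list held the laminin chain LAMA4, the galectin LGALS1, the ligand WNT5A and the receptor kinases KDR and PDGFRB, for which MCAM is a known coreceptor. None of these 5 passed the threshold. WNT5A had 57.0 and 43.3 CPM in the control and 72.9 and 69.0 CPM in the knockdown (0.50, adjusted p = 0.0549 by edgeR). PDGFRB had 173.9 and 137.1 CPM in the control and 113.4 and 115.0 CPM in the knockdown (-0.44, adjusted p = 0.0724 by edgeR). In both genes the groups did not overlap, and DESeq2 called both (adjusted p = 0.0383 and 0.0306). The value of WNT5A was 0.71 without control replicate 1, and that of PDGFRB was -0.61 without control replicate 2. LAMA4, LGALS1 and KDR had log2(fold changes) of 0.19, -0.22 and -0.12 (adjusted p = 0.374, 0.508 and 0.776 by edgeR).

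The called genes of this list are partners of other members. GFRA1, the GDNF receptor that also works with NCAM1, fell from 128.4 and 115.7 to 54.1 and 48.2 CPM (-1.26, standard error 0.13, adjusted p = 0.00063 by edgeR), while NCAM1 itself had at most 3 counts. LAMA5, the laminin chain that BCAM binds, fell from 11.4 and 7.33 to 4.62 and 3.27 CPM (-1.25, standard error 0.26, adjusted p = 0.0149, same test). LAMC1, the laminin gamma chain that joins LAMA4 and LAMA5 in trimers, had a value of -0.44 (adjusted p = 0.0842, same test; 0.0138 by DESeq2). ITGB2, a chain of the leukocyte integrins that bind ICAM1, rose from 1.50 and 1.10 to 3.49 and 4.66 CPM (1.64, standard error 0.29, adjusted p = 0.00705, same test). ITGB3, a chain of an integrin that binds L1CAM, rose from 1.29 and 1.10 to 3.07 and 2.83 CPM (1.30, standard error 0.28, adjusted p = 0.0168, same test), and 33.2% of its exon bases overlap ENSG00000259753. The 2 integrin chains were low in all libraries, with at most 94 counts, and their partners among the 9 genes, ICAM1 and L1CAM, were at or near 0.

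Inside the cell, the nectins bind afadin (AFDN), L1 proteins bind ankyrins, and CADM1 binds EPB41L3. Of the 18 cytoplasmic partners, all tested, 0 rose and 1 fell by edgeR's quasi-likelihood test (6.66% and 4.18% of all genes), with a median of -0.04. At an unadjusted p below 0.05, 0 were higher and 2 lower, and DESeq2 called 0 higher and 1 lower. EPB41L3 fell from 58.2 and 61.7 to 41.6 and 42.2 CPM (-0.52, adjusted p = 0.0208 by edgeR). This call was lost without control replicate 2 (adjusted p = 0.105), without knockdown replicate 1 (0.1) and without knockdown replicate 2 (0.0624). AFDN had a value of 0.18 (adjusted p = 0.402 by edgeR), and the ERM proteins EZR, RDX and MSN, of which MCAM is known to bind some, had -0.04, -0.16 and 0.00 (adjusted p = 0.901, 0.479 and 0.999 by edgeR).

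Of 10 genes for the shedding and polysialylation of these proteins, 7 were tested. By edgeR's quasi-likelihood test 0 were called, beside 10.8% of all genes (0 higher and 1 lower at an unadjusted p below 0.05), DESeq2 called 1 lower, and the median was -0.21. The shedding proteases ADAM10 and ADAM17 had values of -0.31 and -0.30 (adjusted p = 0.273 and 0.241 by edgeR).

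Of 13 transcriptional regulators that are known to act on these genes or to bind the motifs searched, 12 were tested. By edgeR's quasi-likelihood test 1 rose and 0 fell, beside 6.66% and 4.18% of all genes, with a median of 0.13. At an unadjusted p below 0.05, 3 were higher and 2 lower, and DESeq2 called 1 higher and 1 lower. CREB1 and ATF1, which bind the CRE, had values of 0.14 and 0.18 (adjusted p = 0.515 and 0.429 by edgeR). SP1, which binds the GC box, had 91.5 and 88.5 CPM in the control and 111.4 and 113.5 CPM in the knockdown (0.32, adjusted p = 0.106 by edgeR). TFAP2A, which binds the AP-2 motif, had a value of -0.29 (adjusted p = 0.207 by edgeR). NFKB1, a subunit of NF-kB, which induces ICAM1 in many cells, had 44.5 and 36.8 CPM in the control and 60.1 and 55.3 CPM in the knockdown (0.50, adjusted p = 0.0386 by edgeR), while ICAM1 had at most 6 counts. The call of NFKB1 was lost without control replicate 2 (0.37, adjusted p = 0.278) and without knockdown replicate 1 (0.45, adjusted p = 0.139), and narrowly at a mean of at least 100 counts (0.51, adjusted p = 0.0508).

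Since MCAM also marks other cell types, their markers were examined beside it. Of the markers of retinal pigment epithelium, KRT8 (853.5 to 1347 CPM), KRT18 (266.3 to 424.4 CPM), PAX6 (53.6 to 70.1 CPM), MITF (38.2 to 44.8 CPM) and OTX2 (11.2 to 13.4 CPM) were present, BEST1 was at most 0.99 CPM, RLBP1 had at most 1 count and RPE65 had none. By edgeR 0 of the 6 tested were called, beside 10.8% of all genes (0 higher and 1 lower at an unadjusted p below 0.05, and 0 by DESeq2). KRT8, KRT18 and PAX6 had values of -0.35, -0.39 and -0.27 (adjusted p = 0.255, 0.150 and 0.206 by edgeR). MITF, OTX2 and BEST1 had values of 0.19, 0.16 and 0.44 (adjusted p = 0.341, 0.540 and 0.528 by edgeR). The groups did not overlap in all 6, a property that 54.3% of all tested genes shared. The defining visual cycle markers of the tissue were thus absent or nearly so in this line.

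Pericyte and smooth muscle markers summed to 398.9 and 364.5 CPM in the control and 312.8 and 305.5 CPM in the knockdown. Of the 5 tested, 0 were called higher and 1 lower by edgeR, beside 6.66% and 4.18% of all genes. RGS5, a regulator of G protein signalling, fell from 26.0 and 28.3 to 9.58 and 13.1 CPM (-1.26, adjusted p = 0.0022 by edgeR). CSPG4 had a value of -0.19, ACTA2 one of 0.28 and MYH11 one of 0.86 (adjusted p = 0.39, 0.33 and 0.17 by edgeR), and DES had at most 1 count. The value of PDGFRB, also on this list, is given with the partners of MCAM. Endothelial markers summed to 37.6 and 26.1 CPM in the control and 27.6 and 22.6 CPM in the knockdown, and the defining genes CDH5 and ERG had at most 1 count. None of the 5 endothelial markers tested was called by edgeR, beside 10.8% of all genes (0 higher and 2 lower at an unadjusted p below 0.05, 0 by DESeq2). Of their values 1 was positive and 4 were negative. The positive one, TEK at 1.23 (adjusted p = 0.205 by edgeR), rests on 7 and 3 counts in the control and 11 and 10 in the knockdown. TEK thus passed the filter on low counts only through the knockdown libraries. VWF, at -0.81 with 15 and 13, then 5 and 9 counts, passed it only through the control libraries. Nothing is read from the values of TEK and VWF. PECAM1, TIE1 and KDR were at -1.30, -0.45 and -0.12 (adjusted p = 0.102, 0.156 and 0.776 by edgeR). The value of TIE1 was -0.67 without control replicate 2. PECAM1 was called with no filter on low counts (-1.31, adjusted p = 0.0489 by edgeR). Its value rests on 24 and 21 counts in the control and 11 and 5 in the knockdown, where replicate 2 was below the filter of 10 counts. Nothing is read from the value of PECAM1. The melanocyte markers TYR, DCT and SOX10 were at 0. PMEL, the one melanocyte gene tested, had 20 and 7 counts in the control and 31 and 23 in the knockdown. It was not called by edgeR (1.17, adjusted p = 0.137), but was with no filter on low counts (1.17, adjusted p = 0.0355). Control replicate 2 was below the filter of 10 counts, and the value without control replicate 1 was 2.07. Nothing is read from the value of PMEL. Summed leukocyte markers stayed at or below 0.58 CPM and neural markers at or below 4.55 CPM. Neither of the 2 neural genes tested was called, beside 10.8% of all genes. Whether a change in the make-up or state of the culture has a part in the level of MCAM was not tested.

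Finally, the genes whose profile over the 4 libraries was most like that of MCAM were listed from the 13327 tested genes that averaged 1 CPM or more, by the Euclidean distance between log2 CPM profiles centred on their own means. The 5 nearest were ENSG00000250770 (distance 0.243), TOP2B (0.529), GNGT2 (0.707), FAUP4 (0.751) and NXN (0.754). GNGT2, a G protein gamma chain, had 131 and 212 counts in the control and 30 and 22 in the knockdown. NXN, nucleoredoxin, had 83 and 128 counts in the control and 15 and 18 in the knockdown. ENSG00000250770 and FAUP4, the latter a pseudogene, had at most 6 counts in the knockdown libraries. They passed the filter on low counts only through the control libraries, and nothing is read from their values. None of the 5 is an adhesion molecule of this superfamily. Nothing is read from this either, because the profiles hold the contrast on which MCAM was chosen. By Pearson's r over the same 4 libraries, which ignores the size of the change, the 5 most similar genes were HERC4, SCYL3, MMAA, APBA1 and MED28, and 0 genes were shared between these lists of 5.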

How the data were processed

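RNA-seq was available for 2 control and 2 TOP2B knockdown libraries. The authors checked reads with FastQC 0.11.6, aligned them to GRCh38 with STAR 2.5.4a and deposited raw counts per gene (Gencode v24), without normalization. The table repeats its 4 columns, names and values alike, and the 4 repeats were left out. The columns are tagged as stranded and paired-end, whereas the methods describe single-end sequencing. How strand was treated in counting is not given in the sources used here, so overlap of exons with other genes on either strand was computed for the members and the listed genes.

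Genes that reached 10 counts in 2 or more libraries were tested with edgeR 4.0.16 (glmQLFit, glmQLFTest, TMM, condition as the only term, Benjamini-Hochberg over all genes tested, threshold 0.05) in R 4.3.3. The paper names no tool for this step. It reports 917 genes as upregulated and 645 as downregulated, and the Wald test of DESeq2 called 917 higher and 645 lower here. The fit was tested on simulated data. Log2 CPM used a prior count of 2. Positions came from GENCODE v44 and promoters from RefSeq, both on GRCh38, and motifs were searched on both strands.

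The genes named were the 9 members, from each list the 4 largest called rises and falls that averaged 1 CPM or more, up to 4 called neighbours within 500 kb of MCAM, the 5 genes most like MCAM, and TOP2B. Other listed genes were added after their values were seen, with the role each is known for. The members and lists were chosen with earlier results of these data known. The alternatives were the size factors and the Wald test of DESeq2 1.42.0, no normalization factors, no filter, a mean of at least 100 counts, the replicate number as a block, each library left out, the canonical exon length, and correlation in place of distance. Intervals and limits cover the error of these libraries only. No protein sequences were used. Single values of 2 listed genes are not reported here.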

Additional observations from a re-analysis of the deposited data

How the results depend on the processing

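MCAM stayed between -2.92 and -2.86 without any one library and between -2.91 and -2.88 under the other alternatives. Without one library ALCAM ranged from -0.46 to -0.10, BCAM from -0.03 to 0.21, NECTIN2 from -0.26 to 0.00 and NECTIN3 from -0.24 to 0.11. BCAM was reversed without control replicate 2 (-0.0273), and NECTIN3 without replicate 1 of the control (0.11) or replicate 2 of the knockdown (0.03). Such fits assume that the lone library of a condition varies like the others, and the cause of these shifts was not tested. For CXADR the adjusted p values of such fits were lower than with all libraries. A call kept or gained in them is therefore not read as support. With the replicate number as a block, ALCAM was called (-0.29, adjusted p = 7.41e-05 by edgeR), as 1 of the other members called lower. With the block, the calls rose to 5 higher and 9 lower in the wider family, to 19 and 33 in the 5 lists together, to 5 and 6 among the neighbours of MCAM and to 3440 and 3346 of all genes. Deviations of same-numbered libraries had a correlation of 0.479. The study calls its replicates independent and does not state whether same-numbered libraries of the conditions were paired. With 2 libraries per condition, the numbers were not taken as pairs in the main fit. The wider family had 1 higher call with no filter and 0 to 1 without one library (1 to 2 lower). The 5 lists together, with 3 higher and 5 lower calls, had 5 higher and 9 lower with no filter, 9 lower with DESeq2, 0 higher at a mean of at least 100 counts, where ITGB2 and ITGB3 are not tested and NFKB1 has an adjusted p of 0.0508, and 2 to 5 higher and 3 to 6 lower without one library. Lower neighbours of MCAM numbered 1 at a mean of at least 100 counts (RPL23AP64), 1 with DESeq2 (CENATAC) and 0 to 3 without one library, and higher ones 2 to 3. With no filter 985 genes were called lower. MCAM ranked 3rd with the canonical length, and correlation shared 0 of the 5 most similar genes. Depth limits CADM1, ICAM1, NCAM1 and L1CAM, whose few counts allow no test.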
